A study of Mus musculus with 6 samples.

Results

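Fibroblasts of the colon wall are told apart by a small set of genes, most of them for proteins on the cell surface, and 9 of these genes were followed here in mice with chemically induced colitis. They are the receptors Pdgfra and Pdgfrb, the glycoproteins Pdpn, Cd34 and Thy1, the protease Fap, the tetraspanin Cd81, the coagulation receptor F3, and Foxl1, which encodes a transcription factor and not a surface protein. The rule lists the genes by symbol and uses no measured value, although the list was drawn up with earlier results of these data known. All 9 were found among the 18477 genes of the deposited table. All 9 also passed the filter on low counts, which left 14579 genes for testing.

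Colon tissue came from male C57BL/6 mice aged 6 to 8 weeks, which drank 2% dextran sulfate sodium (DSS), a polymer that injures the colonic epithelium, for 7 days from day 8. The DSS group (n = 3 mice) received phosphate buffered saline by daily gavage for 14 days. The DSS+BV group (n = 3 mice) received the gut bacterium *Bacteroides vulgatus* in its place, together with the same DSS. Each mouse gave 1 RNA library, so that both groups had colitis and the libraries hold no group without DSS.

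Several kinds of fibroblast lie in the intestinal wall. Telocytes lie under the epithelium, express *Foxl1*, *F3* and high levels of *Pdgfra*, and are known for Wnt and BMP ligands that act on crypt cells. Trophocytes lie at the crypt base and in the submucosa, carry *Cd34* and *Cd81* with low *Pdgfra*, and are known for supporting stem cells. *Pdgfrb* marks pericytes and other perivascular cells, while *Pdpn*, *Fap* and *Thy1* are used as markers of reticular and activated fibroblasts. None of the 9 genes is made by fibroblasts alone. Endothelium carries *Cd34*, lymphatic vessels *Pdpn*, T cells *Thy1*, epithelium *F3*, and *Cd81* is present on most cells. In RNA from whole tissue, fewer cells of a type and less RNA per cell cannot be told apart.

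The expected counts summed to between 15293276 and 17254343 per library. Values are given as CPM, the count of a gene relative to the library total after TMM scaling, and 1 count was worth between 0.0582 and 0.066 CPM. Libraries did not sort fully by treatment over all tested genes. DSS 1 and DSS+BV 1 had their highest correlation with each other (0.967), and DSS 2 correlated more highly with DSS+BV 2 (0.963) than with any DSS library (0.936). Both correlations are taken across genes, and genes are no substitute for replicate mice. The colon label was borne out by 11 epithelial markers, among them *Epcam*, *Vil1* and *Cdx2*, none of which was at 0. Their summed level lay between 10562 and 12162 CPM in the DSS libraries and between 15506 and 27147 CPM in the DSS+BV libraries, so the groups did not overlap. Much of the sum in DSS+BV 2 and 3 was 1 gene, *Car1*. It was at 825, 1041 and 939 CPM in DSS mice 1, 2 and 3, against 924, 10453 and 8702 CPM in DSS+BV mice 1, 2 and 3. All 11 markers had estimates above 0, with a median log2 fold change of 0.48, and 5 of them had groups apart. Over all tested genes 51.5% of estimates lay below 0, and 6.37% had each DSS+BV library above each DSS library. The 11 markers were read in the same 6 libraries and are not independent counts. The part of this epithelial level in the values below was not tested.

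None of the 9 genes passed an adjusted p under 0.05 with a log2 fold change beyond 1 in size in edgeR's quasi-likelihood test (adjusted p between 0.216 and 0.919). Over all tested genes the same rule called 13 genes (0.0892%), all lower in the DSS+BV group. With the p left unadjusted, 3 of the 9 genes fell under 0.05 with lower estimates (*Pdpn*, *Pdgfrb* and *Pdgfra*) and 0 with higher ones, against 9.12% and 3.4% of all tested genes. With DESeq2, the tool that the study itself used, 1 of the 9 was called, *Pdpn* (log2 fold change -1.14, standard error 0.28, DESeq2 adjusted p = 0.00478), while DESeq2 called 2.01% of its genes, 1.73% as lower and 0.279% as higher. The estimate was below 0 for 8 genes and above 0 for *F3*, and the median log2 fold change of the 9 was -0.37, against -0.01 over all tested genes, of which 51.5% lay below 0. Each DSS+BV library was below each DSS library for 2 genes, *Pdgfrb* and *Pdpn*, a pattern that 11.3% of all tested genes showed. The reverse, with each DSS+BV library above each DSS library, held for 0 of the 9 and for 6.37% of all tested genes.

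**Figure D1:**
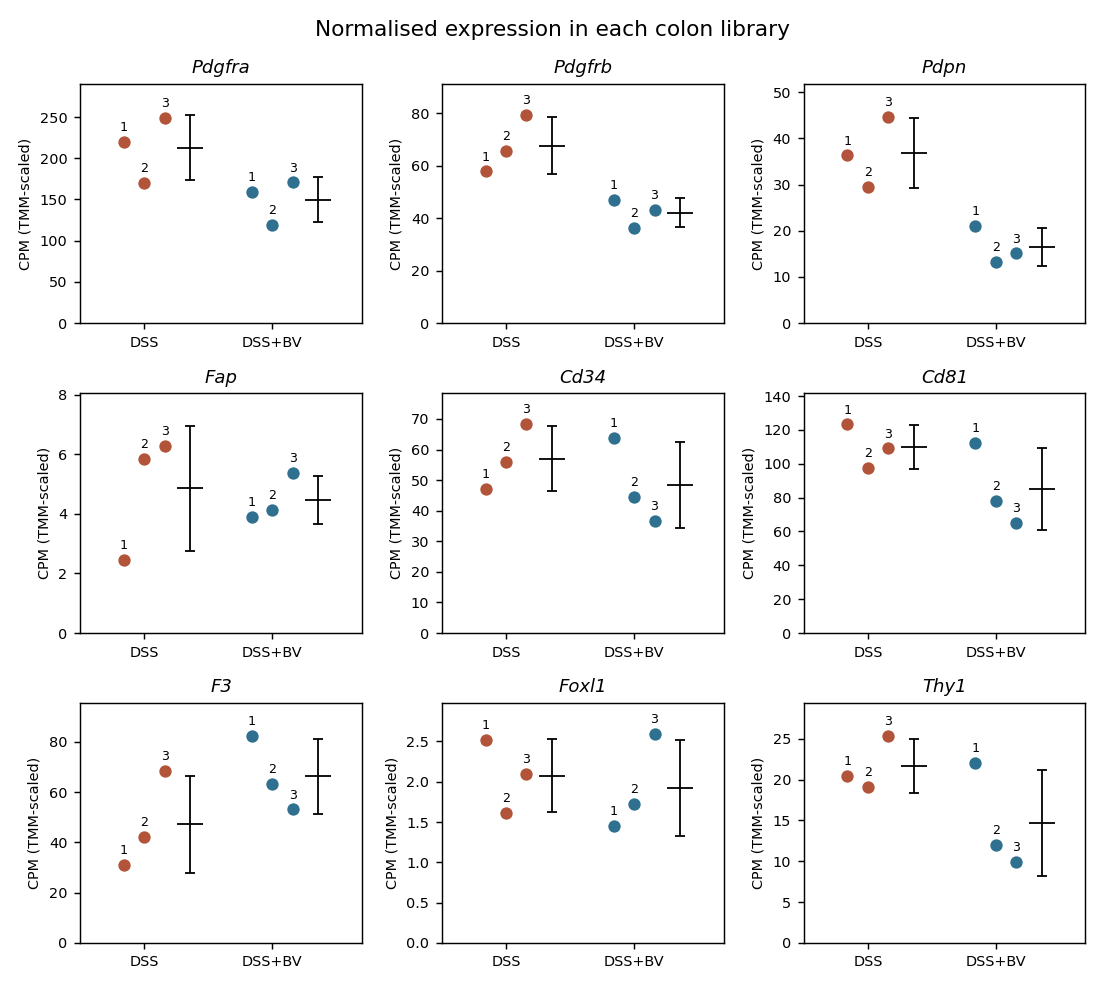
Normalised expression (CPM, TMM-scaled, linear axis from 0) of the 9 genes in each DSS and DSS+BV colon library, with points numbered by replicate and black bars for the mean ± SD (n = 3). The groups are apart for Pdgfrb and Pdpn, touch for Pdgfra, and overlap for the other genes.

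*Pdpn* (Entrez gene 14726, chr4:143267409-143299564 on the minus strand of GRCm38.p6) had the largest difference of the 9. It encodes podoplanin, a mucin-type glycoprotein of fibroblastic reticular cells, activated fibroblasts and lymphatic endothelium, which binds the platelet receptor CLEC-2. Its level was 36.3, 29.4 and 44.7 CPM in DSS mice 1, 2 and 3, against 21.04, 13.3 and 15.1 CPM in DSS+BV mice 1, 2 and 3. The lowest DSS library thus stood above the highest DSS+BV library. The group means were 36.8 ± 7.64 CPM and 16.5 ± 4.07 CPM (SD, n = 3 each), 2.23 times as high in the DSS group. The log2 fold change was -1.16 (standard error 0.24, 95% interval -1.74 to -0.58) (edgeR adjusted p = 0.216). With 1 library left out in turn, it ran from -1.36 without DSS+BV 1 to -0.996 without DSS 3, and the edgeR adjusted p from 0.157 to 0.893.

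The promoter sequences of the genes at both ends of the range, *Pdpn* with the lowest log2 fold change and *F3* with the highest, and of *Pdgfra*, the receptor that names the fibroblast classes, are printed so that the promoter windows of genes with unlike values can be compared. Sequences are from RefSeq on GRCm38.p6, which held an entry for 5 of the 9 genes. Each run gives the 250 bases before the start in the promoter table, 5′ to 3′ on the strand of the gene. For *Pdpn* and *F3* this is the start of the gene as placed above or below, whereas for *Pdgfra* it lies 929 bases inside the gene interval given for it, so that its window is within that interval and not upstream of it. Capitals mark matches, on either strand, to any of 5 motifs that are spelled out with their frequency after the sequences.
Pdpn, chr4:143299565-143299814, minus strand: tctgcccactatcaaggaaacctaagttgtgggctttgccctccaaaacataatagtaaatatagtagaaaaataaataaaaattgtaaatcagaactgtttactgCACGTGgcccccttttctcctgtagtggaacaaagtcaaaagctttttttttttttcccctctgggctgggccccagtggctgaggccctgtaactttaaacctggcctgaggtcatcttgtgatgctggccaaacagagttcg
Pdgfra, chr5:75152001-75152250, plus strand: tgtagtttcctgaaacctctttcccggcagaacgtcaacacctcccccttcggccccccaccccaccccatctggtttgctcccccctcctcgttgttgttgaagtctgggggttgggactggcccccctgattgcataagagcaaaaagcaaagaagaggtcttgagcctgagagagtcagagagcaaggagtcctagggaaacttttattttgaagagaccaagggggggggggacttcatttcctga
F3, chr3:121723287-121723536, plus strand: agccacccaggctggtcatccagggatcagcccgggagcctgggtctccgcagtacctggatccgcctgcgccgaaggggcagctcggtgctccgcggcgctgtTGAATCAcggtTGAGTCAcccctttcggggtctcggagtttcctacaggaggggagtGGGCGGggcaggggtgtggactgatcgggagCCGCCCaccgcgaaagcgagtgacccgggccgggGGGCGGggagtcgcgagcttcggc

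The *Pdpn* window held 1 E-box, which began 144 bases before the start, and no match to the other motifs. The *Pdgfra* window held no match to any of them. The *F3* window held 2 AP-1 sites, which began 146 and 135 bases before the start, and 3 Sp1 boxes at 89, 58 and 24 bases, with no overlap between matches. Of the 32851 windows of the same length in the table, 6.02% held this E-box, spelled CACGTG. The AP-1 site, spelled TGANTCA, was in 6.75% of windows and the Sp1 box, spelled GGGCGG, in 32.7%. The CCAAT box was in 33.8% of windows and the TATA box, spelled TATAAA, in 12.4%. The G and C content was 43.2% for *Pdpn*, 54.4% for *Pdgfra* and 70.0% for *F3*, against a median of 52.4% over all windows. A match is a description of the letters and was not tied to the expression values.

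The 2 receptors for platelet-derived growth factor had lower means in the DSS+BV group. *Pdgfrb* (Entrez gene 18596), the receptor of pericytes and other perivascular cells, was at 57.8, 65.6 and 79.4 CPM in DSS mice 1, 2 and 3, against 47.0, 36.4 and 43.2 CPM in DSS+BV mice 1, 2 and 3. Its groups did not overlap, although DSS 1 and DSS+BV 1 were near each other. The means were 67.6 ± 10.9 CPM and 42.2 ± 5.36 CPM (SD, n = 3 each), with a log2 fold change of -0.68 (standard error 0.17, 95% interval -1.09 to -0.28, edgeR adjusted p = 0.279). *Pdgfra* (Entrez gene 18595, chr5:75151322-75198206, plus strand), which marks fibroblasts at large and telocytes at its highest levels, was at 220, 170 and 249 CPM in DSS mice 1, 2 and 3, against 159, 119 and 171 CPM in DSS+BV mice 1, 2 and 3. The groups touched, since DSS+BV 3 (170.8 CPM) lay just above DSS 2 (170.0 CPM). The *Pdgfra* log2 fold change was -0.51 (standard error 0.20, 95% interval -0.996 to -0.02) (edgeR adjusted p = 0.394).

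All 4 genes of the ligands for these receptors had estimates below 0, with a median log2 fold change of -0.32, and none passed the test. *Pdgfb*, a ligand of both receptors made by endothelium and platelets, was at 14.01, 14.4 and 21.3 CPM in DSS mice 1, 2 and 3, against 10.3, 8.22 and 12.5 CPM in DSS+BV mice 1, 2 and 3. It was the single ligand gene whose groups did not overlap (log2 fold change -0.68, standard error 0.26, edgeR adjusted p = 0.383). For *Pdgfa*, a ligand of the Pdgfra product made by epithelium, it was -0.33 (standard error 0.21). Those of *Pdgfc* and *Pdgfd* were -0.12 (standard error 0.36) and -0.31 (standard error 0.30). Of 12 tested partners of the pathway, such as *Nrp1*, *Lrp1* and the adaptor *Shc1*, 7 had estimates below 0 and 5 above, with a median of -0.08. Among ligands and partners edgeR called 0 genes. At an unadjusted p under 0.05, 3 were lower and 0 higher, against 9.12% and 3.4% of all tested genes. The 2 partners among the 3 were *Plat* (log2 fold change -2.23, standard error 0.57) and *Sparc* (-0.97, standard error 0.17), both with groups apart. DESeq2 called 1, *Plat*, and 2.01% of its genes at large.

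*Cd34* and *Cd81*, the pair that defines trophocytes, were less clearly apart between the groups. *Cd34* (Entrez gene 12490, chr1:194938821-194961292, plus strand) encodes a sialomucin of vascular endothelium, fibroblasts and haematopoietic progenitors. It was at 47.1, 55.9 and 68.2 CPM in DSS mice 1, 2 and 3, against 63.8, 44.4 and 36.6 CPM in DSS+BV mice 1, 2 and 3. DSS+BV 1 was thus higher than 2 of the DSS libraries. The log2 fold change of *Cd34* was -0.24 (standard error 0.24, 95% interval -0.82 to 0.34, edgeR adjusted p = 0.706). *Cd81* (Entrez gene 12520, chr7:143052750-143067930, plus strand) encodes a tetraspanin that organises partner proteins in the membrane. Its values were 123, 97.4 and 109 CPM in DSS mice 1, 2 and 3, against 112, 78.2 and 65.1 CPM in DSS+BV mice 1, 2 and 3. Here too DSS+BV 1 lay within the DSS range, and the other DSS+BV libraries lay below it. The log2 fold change of *Cd81* was -0.37 (standard error 0.22, 95% interval -0.90 to 0.16, edgeR adjusted p = 0.536).

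*Thy1* (Entrez gene 21838, chr9:44043384-44048579, plus strand) encodes a small glycoprotein of fibroblasts, T cells and neurons. Its level was 20.4, 19.1 and 25.3 CPM in DSS 1, 2 and 3, and 22.0, 12.0 and 9.93 CPM in DSS+BV 1, 2 and 3. As with *Cd34* and *Cd81*, DSS+BV 1 stayed within the DSS range. The log2 fold change was -0.56 (standard error 0.32, 95% interval -1.33 to 0.21, edgeR adjusted p = 0.518). Without DSS+BV 1, 5 of the 9 genes had groups that did not overlap, *Cd34*, *Cd81* and *Thy1* beside *Pdgfrb* and *Pdpn*, and 21.3% of all tested genes were then apart in this direction. The edgeR test without this library called none of the 9.

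*F3* (Entrez gene 14066, chr3:121723537-121735052, plus strand) encodes tissue factor, the membrane receptor that starts coagulation, and was the single gene of the 9 with a higher mean in the DSS+BV group. It was at 30.9, 42.0 and 68.5 CPM in DSS mice 1, 2 and 3, against 82.4, 63.2 and 53.2 CPM in DSS+BV mice 1, 2 and 3. DSS 3 lay above 2 of the DSS+BV libraries, and the groups overlapped. The log2 fold change of *F3* was 0.49 (standard error 0.32, 95% interval -0.26 to 1.24), with an edgeR adjusted p of 0.557. It ran from 0.26 without DSS 1 to 0.86 without DSS 3. Of 8 tested genes of the tissue factor pathway, 4 had estimates below 0 and 4 above, with a median of -0.01, and 0 were called by edgeR, by its unadjusted p under 0.05 or by DESeq2.

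*Fap* and *Foxl1* were the least abundant of the 9, and counting error was larger than for the other 7. *Fap* (Entrez gene 14089, chr2:62500936-62575509, minus strand) encodes fibroblast activation protein, a serine protease of activated fibroblasts. It had 41, 94 and 108 counts in DSS mice 1, 2 and 3, against 59, 65 and 85 counts in DSS+BV mice 1, 2 and 3, that is 2.45, 5.84 and 6.29 CPM and 3.89, 4.14 and 5.37 CPM. The DSS libraries held both its lowest and its highest value. Its log2 fold change was -0.12 (standard error 0.40, 95% interval -1.07 to 0.83), and it was above 0 without DSS 2 (0.033) or without DSS 3 (0.11). *Foxl1* (Entrez gene 14241, chr8:121127685-121130644, plus strand), the transcription factor of telocytes, had 42, 26 and 36 counts in DSS mice 1, 2 and 3, against 22, 27 and 41 counts in DSS+BV mice 1, 2 and 3. These are 2.51, 1.62 and 2.096 CPM and 1.45, 1.72 and 2.59 CPM, with the highest and the lowest library both in the DSS+BV group. The *Foxl1* log2 fold change was -0.11 (standard error 0.36, 95% interval -0.97 to 0.75), and it too was above 0 without DSS 1 (0.048) or without DSS+BV 1 (0.068). For its lowest count of 22, Poisson counting error alone is 21.3% of the value. For *Fap* the counting error at its lowest count, in DSS 1, was 15.6%. Among the DSS mice the coefficient of variation was 43.1% for *Fap* and 21.7% for *Foxl1*. Among the DSS+BV mice the order was the reverse, with 17.8% for *Fap* and 31.0% for *Foxl1*, whose lowest count was in DSS+BV 1. The intervals of both genes do not show that the groups were alike.

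**Figure D2:**
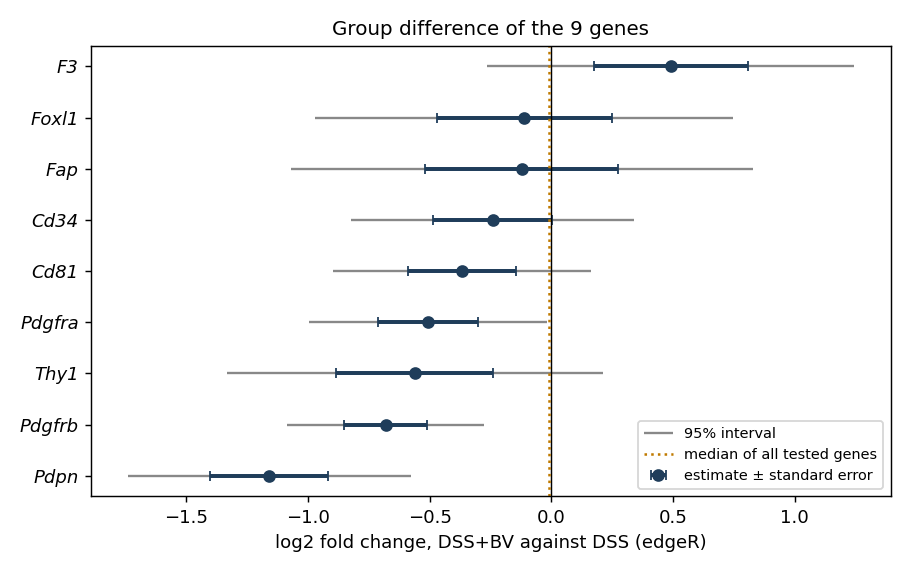
Log2 fold change of each of the 9 genes (DSS+BV against DSS, edgeR), with thick bars for the standard error and thin lines for the 95% interval, and a dotted line at the median of all tested genes. The intervals of Pdpn, Pdgfrb and Pdgfra lie below 0 before adjustment for the number of genes, and those of the other 6 include 0.

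Levels of different genes were compared as CPM per kilobase of the longest protein-coding transcript in GENCODE M21, and the order depends on this choice of length. Over the 6 libraries, *Cd81* had the highest mean level (63.6 CPM per kilobase, range 42.4 to 80.4). *F3* (30.3), *Pdgfra* (26.5), *Cd34* (20.6), *Pdpn* (14.7), *Thy1* (10.4) and *Pdgfrb* (10.1) followed, in mean CPM per kilobase. *Fap* (1.696) and *Foxl1* (0.739) were lowest on this scale. *Cd81* was above *F3*, and *Pdgfrb* above *Fap*, in 6 of 6 libraries. *F3* was above *Pdgfra* in 4 of 6 libraries and *Thy1* above *Pdgfrb* in 3 of 6, so these neighbours did not differ beyond their spread. Per kilobase, *Pdpn* was at 20.2 ± 4.21 CPM with DSS and at 9.06 ± 2.24 CPM with DSS+BV (SD, n = 3 each), and *F3* at 25.2 ± 10.3 and 35.4 ± 7.95. *Pdpn* was above *F3* per kilobase in DSS 1 and below it in the other libraries, and the DSS values of both genes overlapped.

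The ratio between 2 of these genes within a library hardly depends on the scaling of that library. Among the 36 pairs of the 9 genes, the log2 ratio had groups that did not overlap for 11, against 18.0% of all pairs of tested genes, and each of the 11 held *Pdpn* or *F3*. Pairs of *Pdpn* with any tested gene were apart in 71.0% of cases and those of *F3* in 24.8%, and each of these genes was apart from 6 of the other 8. For *Pdpn* the count is thus near that of its pairs at large. *Pdpn* was lower relative to *Pdgfra*, *Cd34*, *Cd81*, *Thy1* and *Foxl1* as well as to *F3* in every DSS+BV library than in every DSS library. The log2 ratio of *Pdgfra* to *Pdpn* was 2.53 ± 0.06 with DSS and 3.19 ± 0.29 with DSS+BV (SD, n = 3 each), with groups apart. The log2 ratio of *Pdpn* to *F3* was -0.30 ± 0.46 and -2.005 ± 0.22 (SD, n = 3 each), a difference of -1.71. *Pdgfra* and *Pdgfrb* kept a log2 ratio of 1.65 ± 0.28 and 1.82 ± 0.14 (SD, n = 3 each), and their groups overlapped. The log2 ratio of *Cd34* to *Cd81* was -0.95 ± 0.38 with DSS and -0.82 ± 0.0078 with DSS+BV (SD, n = 3 each). The SD with DSS+BV is smaller than counting error, which was 4.16% for *Cd34* and 3.12% for *Cd81* at their lowest counts. It is 1 of 36 pairs and cannot be read as less variation between the DSS+BV mice.

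**Figure D3:**
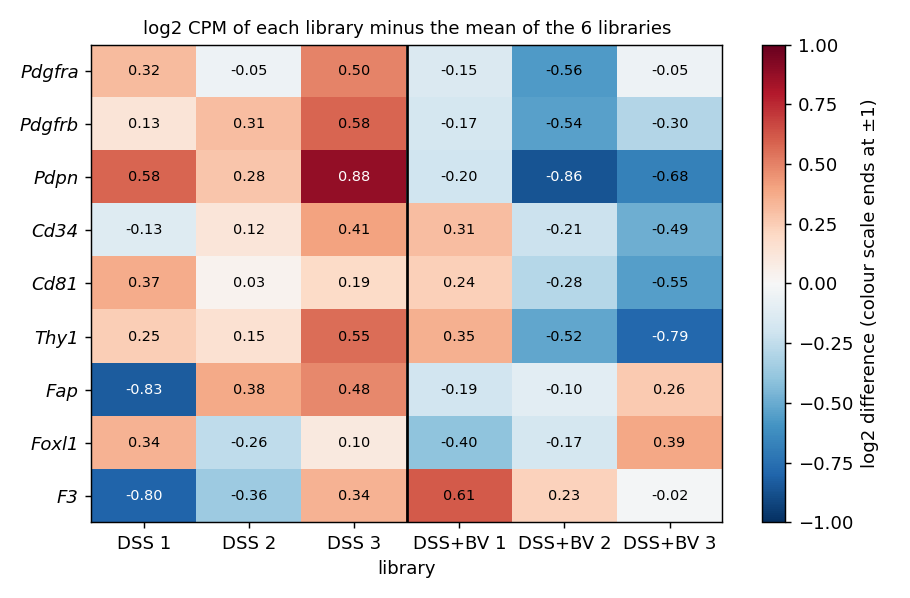
Log2 CPM of each of the 9 genes in each library minus the mean of that gene over the 6 libraries, with DSS libraries left of the line and DSS+BV libraries right of it. DSS 3 is the highest of the 6 libraries for 6 genes, DSS+BV 2 and DSS+BV 3 are the lowest for 3 genes each, and F3 is lowest in DSS 1 and highest in DSS+BV 1.

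The 9 genes did not share one pattern over the mice. Among the DSS libraries, DSS 3 was the highest for 7 genes and the lowest for 0, while DSS 2 was the lowest for 5. Among the DSS+BV libraries, DSS+BV 1 was the highest for 6 genes. The within-group SD of log2 CPM, pooled over both groups, was 0.21 for *Pdgfrb* and 0.28 for *Pdgfra*, and it reached 0.54 for *Fap*. Its median was 0.34 for the 9 genes and 0.29 over all tested genes.

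Likeness of pattern was measured as the root mean square difference of centred log2 CPM over the 6 libraries, among 14082 genes with a mean of at least 1 CPM, and was read as a description. The closest of the other 8 genes was *Pdgfrb* for *Pdgfra* and the reverse (0.20 log2 units), *Cd81* for *Thy1* and for *Cd34* (0.22 and 0.23) and *Pdgfrb* for *Pdpn* (0.30). Many genes outside the 9 were closer still, such as 262 for *Pdgfra* and 458 for *Pdpn*. The most similar genes to *Pdpn* were *Neb*, *Itgb3* and *C1qtnf1* (0.071 to 0.081), to *Pdgfra* *Lmcd1*, *Tbkbp1* and *LOC102634078* (0.069 to 0.078), and to *Pdgfrb* *Armcx4*, *Cyp4v3* and *Map1a* (0.033 to 0.051). *Thy1* was most like *Pecam1*, *Dab2* and *Zeb2* (0.080 to 0.086), *Cd34* most like *Cavin1*, *Fbxl7* and *Birc3* (0.050 to 0.063), and *Cd81* most like *Tbc1d2b*, *Lrch1* and *Arhgap31* (0.072 to 0.090). For *F3* these were *Cys1*, *Ogn* and *BC016579* (0.13 to 0.17). *Fap* was nearest to *Stum*, *Plxnb1* and *Tspan6* (0.085 to 0.10), and *Foxl1* to *Ankrd39*, *Gm5617* and *Marchf9* (0.088 to 0.11).

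*Pdgfrb*, *Cd34*, *Pdpn*, *Thy1* and *F3* were each set against the mean log2 CPM of markers of another cell type that also makes them. *Pdgfra* was set against smooth muscle markers, as a tissue of the same wall and not as another source of its RNA. *Pdgfrb* and the mean of the 8 tested pericyte markers each differed by -0.67 between the groups. *Pdgfrb* relative to them was 1.26 ± 0.15 with DSS and 1.25 ± 0.23 with DSS+BV (log2, SD, n = 3 each). The markers themselves were not alike, with log2 fold changes from -1.65 to 0.03. Relative to the median of that list, the difference of *Pdgfrb* was 0.16, against -0.01 relative to the mean. *Pdpn* relative to 8 lymphatic endothelial markers was 1.13 ± 0.33 and 0.48 ± 0.63 (log2, SD, n = 3 each), a difference of -0.64 beside a difference of -0.52 in the markers themselves. Of these 8 markers 7 had estimates below 0. *Nts* had a log2 fold change of 3.98, which raises their mean difference, and *Ptx3* had one of -3.34, which lowers it. The level of *Ptx3* was 9.22, 9.20 and 3.90 CPM in DSS mice 1, 2 and 3, against 0.59, 1.47 and 0.13 CPM in DSS+BV mice 1, 2 and 3. For *Nts* it was 0.06, 2.98 and 0.82 CPM in DSS mice 1, 2 and 3, against 0.20, 18.9 and 41.7 CPM in DSS+BV mice 1, 2 and 3. Relative to the median of the list, the difference of *Pdpn* was -0.99, so the value depends on how the list is summarised. *Cd34* relative to 10 blood endothelial markers went the other way, at 0.26 ± 0.13 and 0.61 ± 0.22 (log2, SD, n = 3 each), where the markers differed by -0.61 and *Cd34* by -0.26. The difference of *F3* (0.54) was close to that of 11 epithelial markers (0.61), and its value relative to them was -3.93 ± 0.48 and -3.99 ± 0.56 (log2, SD, n = 3 each). Relative to the median of that list, the difference of *F3* was 0.15, against -0.06 relative to the mean. *Thy1* relative to 10 T cell markers differed by -0.40 and *Pdgfra* relative to 10 smooth muscle markers by -0.34. All 6 sets of values overlapped between the groups, and in two-sided exact permutation tests the p-values lay between 0.2 and 1 (0.4 to 1 after Benjamini-Hochberg adjustment over the 6), where 0.1 is the smallest that 3 mice against 3 can give.

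**Figure D4:**
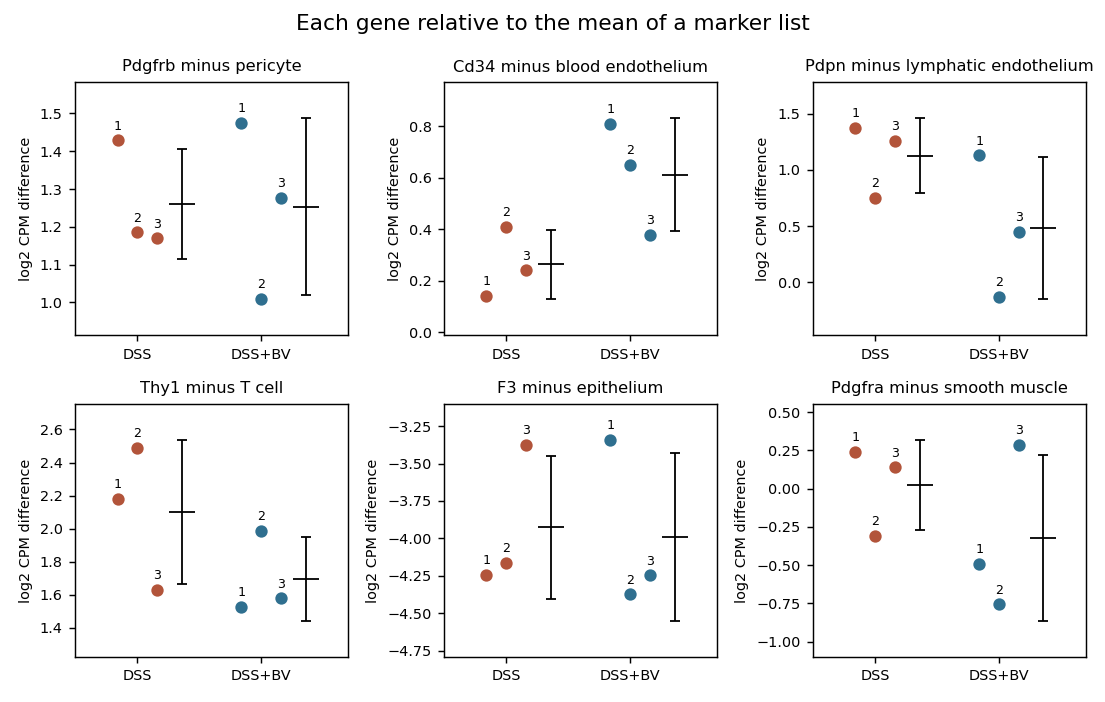
Log2 CPM of a gene minus the mean log2 CPM of a marker list, per library, with points numbered by replicate and bars for the mean ± SD (n = 3); the axes do not start at 0. DSS and DSS+BV libraries overlap in all 6 panels, most closely for Pdgfrb with the pericyte markers.

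None of the markers of these other cell types was at 0 in all libraries. The summed level of the pericyte markers lay between 399 and 771 CPM in the DSS libraries and between 302 and 376 CPM in the DSS+BV libraries. Blood endothelial markers were at 514 to 698 and 349 to 452 CPM, and lymphatic endothelial markers at 211 to 334 and 155 to 213 CPM. Smooth muscle markers were at 3394 to 4195 and 2507 to 4083 CPM, and T cell markers at 43.8 to 96.5 and 42.4 to 97.7 CPM. Estimates lay below 0 for 10 of 10 blood endothelial, 7 of 8 lymphatic, 7 of 8 tested pericyte, 8 of 10 smooth muscle and 7 of 10 T cell markers. At an unadjusted p under 0.05, 5 blood endothelial, 4 lymphatic and 2 pericyte markers were lower and 1 lymphatic marker higher. Smooth muscle and T cell markers had 0 in either direction. EdgeR called 0 of them, and DESeq2 called 2 pericyte, 1 blood endothelial and 1 lymphatic marker. Markers of the outer mesothelium, which also carries *Pdpn*, summed to between 6.90 and 7.48 CPM in the DSS libraries and between 3.67 and 6.56 CPM in the DSS+BV libraries, without overlap, and 3 of the 8 passed the filter. Their part in the difference of *Pdpn* was not tested. Of the remaining cell types listed, the estimate lay below 0 for 10 of 10 macrophage and monocyte markers (median log2 fold change -0.91), 8 of 8 B cell markers (-0.76), 6 of 6 enteric glial markers (-0.99) and 2 of 5 markers of interstitial cells of Cajal (0.30). In these lists edgeR called 0 genes, 6 lower and 1 higher had an unadjusted p under 0.05, and DESeq2 called 2. Over all tested genes the shares at that unadjusted p were 9.12% lower and 3.4% higher, and DESeq2 called 2.01% of its genes. The sums of the pericyte, blood endothelial, mesothelial and enteric glial markers (glia at 33.9 to 72.3 and 19.6 to 25.3 CPM) were lower in each DSS+BV library than in each DSS library, as for *Pdgfrb* and *Pdpn*, and those of the epithelial and interstitial cell of Cajal markers (the latter at 167 to 251 and 297 to 314 CPM) were higher. None of the 5 interstitial cell of Cajal markers had groups apart on its own. Among them *Cd44*, also counted as a podoplanin partner, was at 55.8, 57.8 and 76.1 CPM in DSS mice 1, 2 and 3. In DSS+BV mice 1, 2 and 3 it was at 69.0, 119 and 147 CPM. Of the 3 tested mesothelial markers only *Rspo1*, also in the trophocyte list, had groups apart. Sums without these genes were not compared. The part of these markers in the differences of the 9 genes was not tested.

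Lists of further genes of each fibroblast class were described beside the 9, with no test of a list. Of these 59 genes tested in 5 lists, edgeR called 0. At an unadjusted p under 0.05 it gave 20 lower and 1 higher, against 9.12% and 3.4% of all tested genes. DESeq2 called 13, and 2.01% of its genes at large. Of the 13, *Adamdec1* alone had an estimate above 0. *C3*, *Dcn*, *Adamdec1*, *Tnc*, *Mmp3* and *Cxcl13* are among the most abundant of their lists. The other 7 are named because DESeq2 called them, a choice made after their values were seen. For telocytes, 12 of 14 estimates lay below 0 (median -0.34), with *Nrg1*, an epidermal growth factor family ligand, at -0.44 (standard error 0.20) and the BMP ligands *Bmp3* and *Bmp5* at -0.01 (standard error 0.77) and -0.12 (standard error 0.26). For trophocytes, 11 of 14 lay below 0 (median -0.63), and complement *C3*, which epithelium also makes, had the values 643, 840 and 797 CPM in DSS mice 1, 2 and 3, against 366, 154 and 68.0 CPM in DSS+BV mice 1, 2 and 3 (log2 fold change -1.96, edgeR adjusted p = 0.32). The other abundant genes of this list, *Ly6a* and *Ugdh*, were at -0.74 (standard error 0.61) and 1.62 (standard error 0.72). DESeq2 also called *Grem1*, a BMP antagonist, and the Wnt amplifiers *Rspo3* and *Rspo1*, all with groups apart. *Grem1* was at 160, 226 and 139 CPM in DSS mice 1, 2 and 3, against 64.8, 28.5 and 37.0 CPM in DSS+BV mice 1, 2 and 3 (log2 fold change -2.01, edgeR adjusted p = 0.161). The log2 fold changes of *Rspo3* and *Rspo1* were -1.58 (standard error 0.35) and -1.51 (standard error 0.32).

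For lamina propria fibroblasts, 9 of 12 estimates lay below 0 (median -0.39), and the most abundant genes did not share a direction. *Dcn*, the proteoglycan decorin, was at 628, 680 and 1003 CPM in DSS mice 1, 2 and 3, against 485, 323 and 278 CPM in DSS+BV mice 1, 2 and 3, with groups apart (log2 fold change -1.09, edgeR adjusted p = 0.285). *Adamdec1*, a secreted protease of gut fibroblasts and macrophages, was at 188, 230 and 284 CPM in the same DSS libraries and at 272, 729 and 1474 CPM in the DSS+BV libraries (log2 fold change 1.82, edgeR adjusted p = 0.332). *Dpep1* was at 0.44 (standard error 0.85). The Wnt antagonist *Sfrp1*, also called by DESeq2, had groups apart, with an estimate of -1.61 on the log2 scale (standard error 0.21, edgeR adjusted p = 0.0833). For activated fibroblasts, 11 of 11 estimates lay below 0 with a median of -1.44. Tenascin C (*Tnc*) was at 303, 406 and 379 CPM in DSS mice 1, 2 and 3, against 149, 109 and 143 CPM in DSS+BV mice 1, 2 and 3 (log2 fold change -1.44, edgeR adjusted p = 0.0833). The log2 fold change of *Mmp3* was -3.29 (edgeR adjusted p = 0.0833), while that of *Postn*, which encodes periostin, was -0.13 (edgeR adjusted p = 0.87). The remaining genes of this list that DESeq2 called were the protease *Mmp10* (-3.17, standard error 0.60) and the cytokines *Il11* (-2.33, standard error 0.73) and *Il33* (-1.67, standard error 0.27), each with groups apart. For fibroblastic reticular cells, 8 of 8 lay below 0 (median -0.79), with *Cxcl13*, the B cell chemokine, at -2.31 (standard error 0.81), *Ltbr* at -0.12 (standard error 0.13) and *Tnfsf13b* at -0.44 (standard error 0.48). The summed level of this list was 451, 193 and 692 CPM in DSS mice 1, 2 and 3, against 259, 171 and 169.7 CPM in DSS+BV mice 1, 2 and 3. The B cell markers summed to 188, 17.2 and 303 CPM and to 283, 9.17 and 12.3 CPM in the same libraries, so that both lists were highest in DSS 3 and, within the DSS+BV group, in DSS+BV 1. The part of B cell content in this list was not tested. *Pdpn*, at -1.16, lay between the medians of the last 2 lists, and *Foxl1*, *Fap* and *Cd34* lay nearer to 0 than the medians of all 5.

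**Figure D5:**
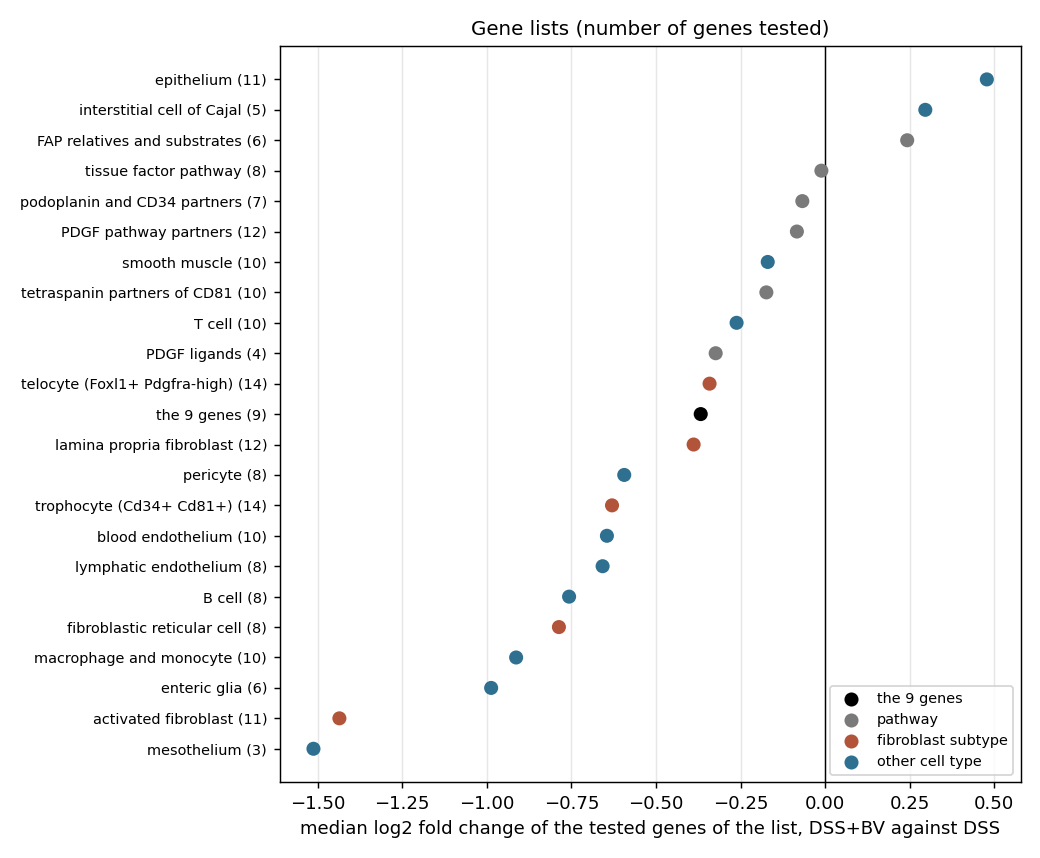
Median log2 fold change (DSS+BV against DSS, edgeR) of the tested genes of each list, with the number of genes in brackets and colours for the kind of list. The 9 genes lie at -0.37, between the telocyte and lamina propria lists, activated fibroblasts at -1.44 and epithelium at 0.48.

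The partners of the other surface proteins were also counted. Of 10 tetraspanin partners of CD81, such as *Cd9*, *Cd151* and *Itgb1*, 7 had estimates below 0 and 3 above (median -0.17). Of 7 tested partners of podoplanin and CD34, such as *Cd44* and *Ezr*, 4 lay below 0 and 3 above (median -0.07). Of 6 tested relatives and substrates of FAP, 5 lay above 0, with a median of 0.24. In these 3 lists edgeR called 0 genes. At an unadjusted p under 0.05 it gave 3 lower and 2 higher, against 9.12% and 3.4% of all tested genes. DESeq2 called 2, and 2.01% of its genes at large. These 2 were the CD81 partners *Tspan4* (edgeR log2 fold change -1.09, standard error 0.26) and *Ifitm3* (-1.25, standard error 0.30), both lower with groups apart.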

How the data were processed

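RNA from the colon of 6 mice was sequenced, 1 library per mouse. The authors quantified genes with RSEM 1.2.8 and deposited expected counts (estimated counts per gene, not scaled between libraries), and the submitters' processing notes also list HISAT2 2.1.0, Bowtie2 2.2.5 and GRCm38.p6. The annotation release and the strand setting are not given in the sources used here. Genes on the opposite strand overlap exons of *Pdgfra*, *Cd34* and *Cd81*, and without strand the reads of such pairs cannot be told apart.

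Expected counts were rounded, low genes were removed by filterByExpr (minimum count 10, total 15), and TMM factors scaled the libraries. The test between groups was edgeR (4.0.16, R 4.3.3) quasi-likelihood, with Benjamini-Hochberg adjustment over 14579 genes. Log2 CPM used a prior count of 2. The biological coefficient of variation was 32.1%. The edgeR step was tested on simulated data with known changes. The study itself used DESeq2. Alternatives were DESeq2 1.42.0, other factors and filters, a robust fit, a replicate block and each library left out. Samples that differ only in sampling noise were not found (chi-square per degree of freedom of at least 44.0 within groups). The edgeR p-values set the difference between groups against a dispersion estimated from these mice and moderated over all tested genes.

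The 9 genes and the gene lists were chosen with earlier results of these data known. Named genes are the 9, the 3 most similar to each, the PDGF ligands, called list genes and the 3 most abundant of each fibroblast list. Genes of the fibroblast, PDGF partner and CD81 partner lists that only DESeq2 called were added after their values were seen. *Nts*, *Ptx3*, *Cd44*, *Car1* and the mesothelial use of *Rspo1* were added in the same way, for their weight in a list. *Sparc* was added in the same way, for its unadjusted p. Some list members are named without values as examples. Transcript lengths came from GENCODE M21, and figures from matplotlib 3.10.9.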

Additional observations from a re-analysis of the deposited data

How the results depend on the processing

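Of all tested genes, edgeR called 13, and DESeq2 called 325. The count stayed within 1.5 times of 13 under RLE and upper-quartile scaling, both other low-count filters, robust fitting and a call by adjusted p only. It ran from 0 to 7 with 1 library left out, and each of the 6 libraries moved it by over 1.5 times (0 without DSS 1, DSS 3, DSS+BV 2 or DSS+BV 3, 1 without DSS 2, 7 without DSS+BV 1). With the replicate number as a block it was 0. The deviations of same-numbered libraries from their group means had correlations of 0.27, 0.25 and -0.30 for numbers 1, 2 and 3. With 3 libraries per group these deviations are tied to each other. They cannot show whether same-numbered samples share more than a number. DESeq2 called 1 of the 9 genes, *Pdpn*, and every other alternative called 0, from 0 to 0 with 1 library left out. The number of the 9 genes whose groups did not overlap ran from 2 to 5 with 1 library left out. The sign of the log2 fold change reversed for *Fap* (range -0.44 to 0.11) and *Foxl1* (range -0.38 to 0.068) with 1 library left out, and for none of the other 7 genes under any alternative. The causes were not tested. Counts were lowest for *Fap* and *Foxl1*, with at most 108 and 42.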
